A study of Mus musculus with 6 samples.

Results

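The MYC and MAX network is a set of basic helix-loop-helix leucine zipper transcription factors, here 10 genes taken as fixed by name: the MYC genes Myc, Mycl and Mycn, their shared partner Max, and the MAX-binding antagonists Mxd1, Mxd3, Mxd4, Mxi1, Mnt and Mga. Every probe set annotated to exactly 1 of these symbols was used, which gave 27 of the 45037 probe sets tested and 10 of the 18193 genes. The cells came from mouse small cell lung cancer, a neuroendocrine tumour, in Rb/p53/p130 triple knockout animals of mixed C57BL/6;129Sv/J background. The tumours followed adenoviral delivery of Cre recombinase and were harvested 6 to 7 months later. Both groups carry this genotype, and neither was treated. Dissociated tumour cells stained for CD24, CD44 and EpCAM were sorted into tumour-propagating cells (TPCs) and the non-TPCs of the same animal. Mice 1127, 920 and 0107 each gave 1 array per fraction, so 3 TPC arrays were compared with 3 non-TPC arrays. Neither the sorting gates nor the promoter of the viral Cre are stated in the labels.

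MYC proteins bind E-box DNA as heterodimers with MAX and recruit coactivators that raise transcription of growth and biosynthesis genes. MXD proteins, MXI1, MNT and MGA also pair with MAX at E-boxes, but bring corepressors, so activators and antagonists compete for the same partner and sites. In small cell lung cancer, tumours often carry extra copies of 1 MYC family gene, and MYCL was first found in this tumour type.

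Levels are RMA values, taken from their range to be on the log2 scale, so a difference of 1 is a 2-fold difference. Probe sets carry the names and gene annotation of a 3′ expression array, while the labelling kit stated is one for whole-transcript arrays. This mismatch was not resolved, and every gene value rests on that annotation. Differences are TPC minus non-TPC. A gene is represented by its brightest probe set unless stated, and levels of different probe sets are not compared. P-values are from limma with the Benjamini-Hochberg adjustment over the whole set of 18193 genes, and a gene passed at an adjusted p under 0.05.

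Regulatory sequence is shown for Mycl, Mycn and Mxd4. For each, the 250 bases before the annotated start are printed, from RefSeq on GRCm38.p6, 5′ to 3′ along the gene. Capitals mark the E-box CACGTG, the motif that MYC and MAX bind, and the E2F motifs TTTGGCGC and TTTCGCGC, searched on both strands. E2F factors are the transcription factors held in check by the RB family. The Mycl window is chr4:122995681-122995930 on the plus strand, the Mycn window is chr12:12941837-12942086 on the minus strand and the Mxd4 window is chr5:34187711-34187960 on the minus strand.
Mycl: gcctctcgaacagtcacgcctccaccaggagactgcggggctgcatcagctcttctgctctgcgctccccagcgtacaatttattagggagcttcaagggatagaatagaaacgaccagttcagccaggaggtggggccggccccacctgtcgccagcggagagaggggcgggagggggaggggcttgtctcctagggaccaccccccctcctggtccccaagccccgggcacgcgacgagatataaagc
Mycn: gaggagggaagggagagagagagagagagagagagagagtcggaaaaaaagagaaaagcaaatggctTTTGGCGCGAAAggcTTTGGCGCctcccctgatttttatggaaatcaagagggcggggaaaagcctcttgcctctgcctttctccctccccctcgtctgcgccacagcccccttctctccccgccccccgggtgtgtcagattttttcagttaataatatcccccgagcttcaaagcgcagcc
Mxd4: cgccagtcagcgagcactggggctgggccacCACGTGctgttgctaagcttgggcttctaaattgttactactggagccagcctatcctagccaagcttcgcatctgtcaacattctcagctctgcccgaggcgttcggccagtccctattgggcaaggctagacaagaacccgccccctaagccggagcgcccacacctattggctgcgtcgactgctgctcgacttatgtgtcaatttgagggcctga
The Mycn window held TTTGGCGC 183 and 168 bases before the start, and TTTCGCGC, as its reverse complement, 179 bases before it, overlapping the first. The Mxd4 window held 1 E-box, 219 bases before the start, and the Mycl window held none of these motifs. The Mga window, which is not printed, held none of them either. Over 32851 promoter windows of this length, 6.02% held the E-box, 0.417% held TTTGGCGC and 0.256% held TTTCGCGC. RefSeq windows were matched for 9 of the 10 genes, 11 windows in all, and besides Mxd4 the window of Mnt held an E-box, 123 bases before the start. These matches are descriptions of sequence, not of binding.

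Mycl, on chromosome 4, had the largest mean difference between the fractions among the network genes by their brightest probe sets, and it was higher in TPCs of every animal. It stood at 9.73, 9.39 and 8.16 in TPCs of mice 1127, 920 and 0107, against 8.48, 8.17 and 7.14 in their non-TPCs. Each TPC array was above the non-TPC array of its own mouse, although the groups overlapped because both fractions of mouse 0107 were low. The differences were 1.25, 1.22 and 1.02, and the TPC mean was 9.09 ± 0.83, against a non-TPC mean of 7.93 ± 0.70 (SD, n = 3 each). The mean difference of 1.16 (SE 0.50), a 2.24-fold higher level in TPCs, did not pass the test (limma adjusted p = 0.774, 95% confidence interval -0.03 to 2.36). When the mouse was added as a replicate block, so that the difference was set against its variation between mice, the interval was 0.82 to 1.50, and Mycl did not pass either (limma adjusted p = 0.0843).

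Mycl was 1 of 3 genes among the 18193, 0.0165%, that were higher in TPCs by at least 1 log2 unit in all 3 mice. The other 2, named after their values were seen, were Crh, which encodes corticotropin-releasing hormone, with differences of 2.08, 1.96 and 3.06, and the orphan receptor gene Gpr62, with 1.32, 1.22 and 1.17 in mice 1127, 920 and 0107. In mouse 1127, 7 genes had at least as large a positive difference as Mycl, and in mouse 920 there were 12. In mouse 0107, 704 genes did, 3.87% of all. The share of genes at least 1 unit higher in TPCs was 0.214% in mouse 1127, 0.236% in mouse 920 and 4% in mouse 0107.

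The Mycl difference rested on 1 of its 3 probe sets. The bright one averaged 8.51, while the dimmer ones averaged 4.33 and 4.04, below the first quartile of every array (4.52 to 4.65), and differed by 0.02 and 0.12. When all probe sets of a gene were averaged, the Mycl difference was 0.43, smaller in size than that of Myc, at -0.51.

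**Figure D1:**
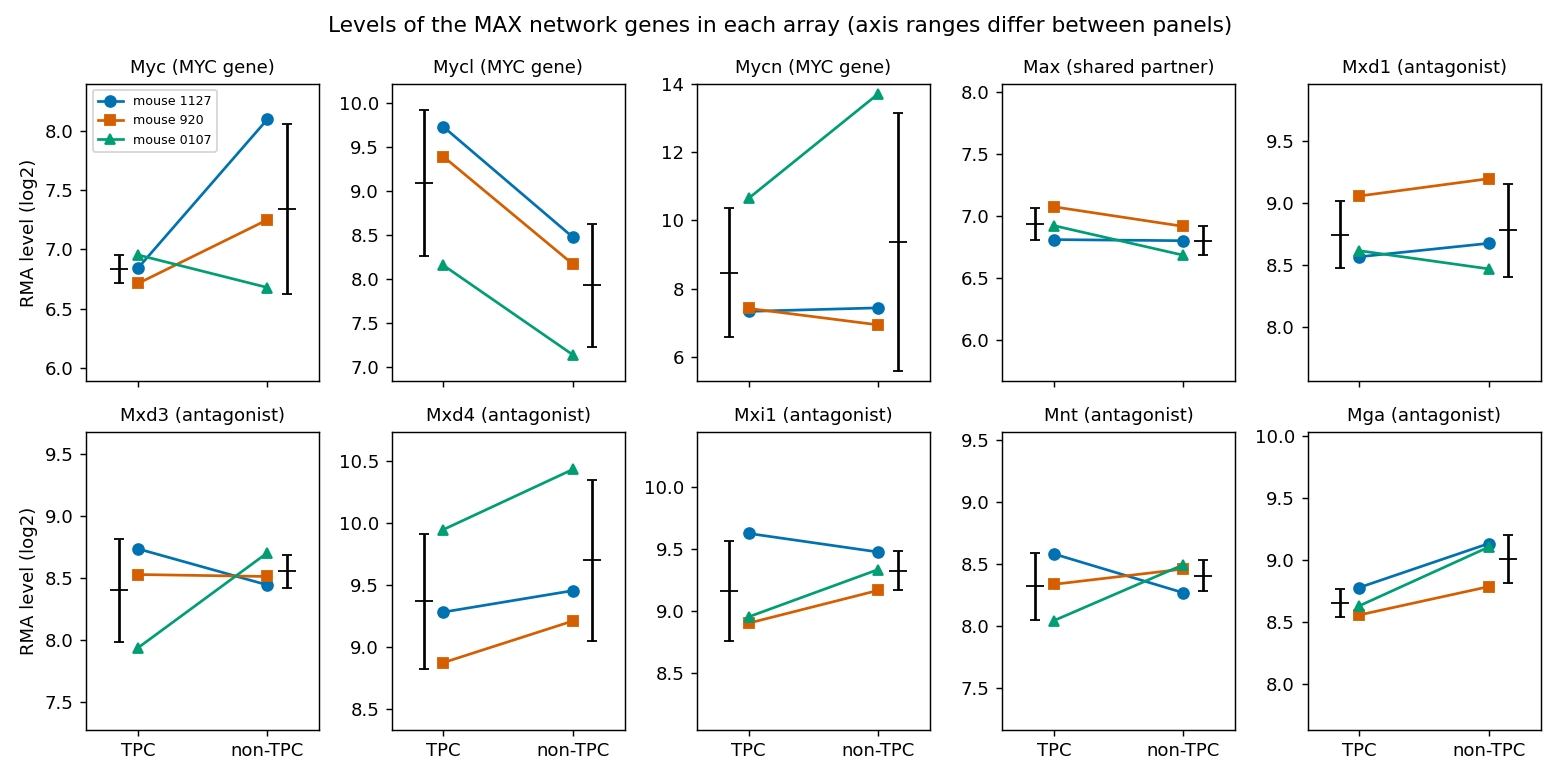
RMA levels (log2) of the 10 network genes in TPC (left) and non-TPC (right) arrays, with 1 line per mouse and bars for mean and SD of 3 arrays. Mycl slopes the same way in all 3 mice, and Mycn is high in mouse 0107 alone, with 10.64 for TPCs and 13.70 for non-TPCs.

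Mycn, on chromosome 12 and the family member best known from neuroblastoma, set 1 mouse apart rather than a fraction, on 1 of its 3 probe sets. In TPCs it was at 7.33, 7.42 and 10.64 in mice 1127, 920 and 0107, against 7.44, 6.94 and 13.70 in non-TPCs. Both arrays of mouse 0107 lay above all 4 arrays of the other mice. The mean of its 2 fractions was 4.89 above that of the other mice, and among all genes only Xist, at 7.36, and Eif2s3y, at -7.26, a pair of sex-linked transcripts named after their values were seen, had a larger absolute difference between mouse 0107 and the others. Only 1 animal showed this, so it has no replicate and no test. Xist, on the X chromosome, was at 12.89 and 13.10 in TPCs and non-TPCs of mouse 0107, against 5.25 to 5.79 in the other mice. Eif2s3y, on the Y chromosome, was at 3.06 and 2.98, against 10.02 to 10.54. In what sets mouse 0107 apart, a difference of sex and other differences of this animal therefore cannot be told apart.

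Within mouse 0107 the Mycn difference was -3.06, and 68 other genes, 0.374% of all, were lower in its TPCs by at least as much. A difference of -1 or below was found for 4.27% of all genes in that mouse. In mice 1127 and 920 Mycn differed by -0.10 and 0.48. The mean difference of -0.89 had an SE of 1.89 (limma adjusted p = 0.953, 95% confidence interval -5.42 to 3.63), and without mouse 0107 it was 0.19 (SE 0.21). The dimmest Mycn probe set, with a mean of 5.24, was at 5.19, 5.20 and 5.14 in TPCs of mice 1127, 920 and 0107, against 4.72, 4.95 and 6.20 in non-TPCs. The remaining probe set, with a mean of 6.14, was at 6.28, 6.17 and 6.12 in TPCs, against 5.99, 6.07 and 6.22 in non-TPCs. In both, mouse 0107 had the lowest of the TPC arrays and the highest of the non-TPC arrays.

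The 2 measured genes that follow Mycn on the chromosome had the same pattern over the arrays. Ddx1, an RNA helicase gene, was at 10.93, 11.06 and 13.53 in TPCs of mice 1127, 920 and 0107, against 11.29, 11.01 and 14.81 in non-TPCs. Nbas, which encodes a protein of Golgi to endoplasmic reticulum transport, was at 7.15, 6.71 and 8.88 in TPCs, against 7.66, 6.95 and 12.21 in non-TPCs. In mouse 0107 both genes were above all other arrays and lower in TPCs than in non-TPCs, with differences of -1.29 for Ddx1 and -3.33 for Nbas. Among all genes, 11 set mouse 0107 apart by more than Ddx1 and 8 by more than Nbas. The third measured gene on that side, Lratd1, was lower in mouse 0107, at 6.71 in its TPCs, against 5.29 in its non-TPCs, and on the other side Cyria was at 6.55 in its TPCs, against 5.98 in its non-TPCs. These neighbours were looked up after the values of Ddx1 were seen. DNA copy number was not measured here.

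Ddx1 was also the gene most like Mycn over the 6 arrays among 1481 genes of above-median level and an SD of at least 0.5 (Pearson r = 0.99), followed by Zfp30, Pdzrn4, Zfp566 and Pms1 (r from 0.98 to 0.99). The genes most like Mycl were St8sia5, Nppb, Bcl11b, Fam241b and Kcnk2 (r from 0.95 to 0.98). St8sia5, a sialyltransferase gene, differed by 0.95, 0.54 and 0.79 in mice 1127, 920 and 0107, and Bcl11b, a zinc finger transcription factor gene, by 0.80, 1.06 and 0.52. Arrays of a mouse share their animal and arrays of a fraction their sorted cell type, so these correlations over 6 arrays are descriptions. For Mycn they rest on mouse 0107.

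The neighbours of Mycl had mean differences between 0.07 and 0.58. Of the nearest 2 measured genes on each side, the actin regulator gene Cap1 (0.89, 0.36 and 0.48) and Bmp8b had positive differences in every mouse, while Mfsd2a and Trit1 were mixed, and none passed (limma adjusted p from 0.877 to 0.979). Cap1 ranged between mice, at 11.05, 9.37 and 5.80 in TPCs of mice 1127, 920 and 0107, against 10.15, 9.01 and 5.32 in non-TPCs.

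**Figure D2:**
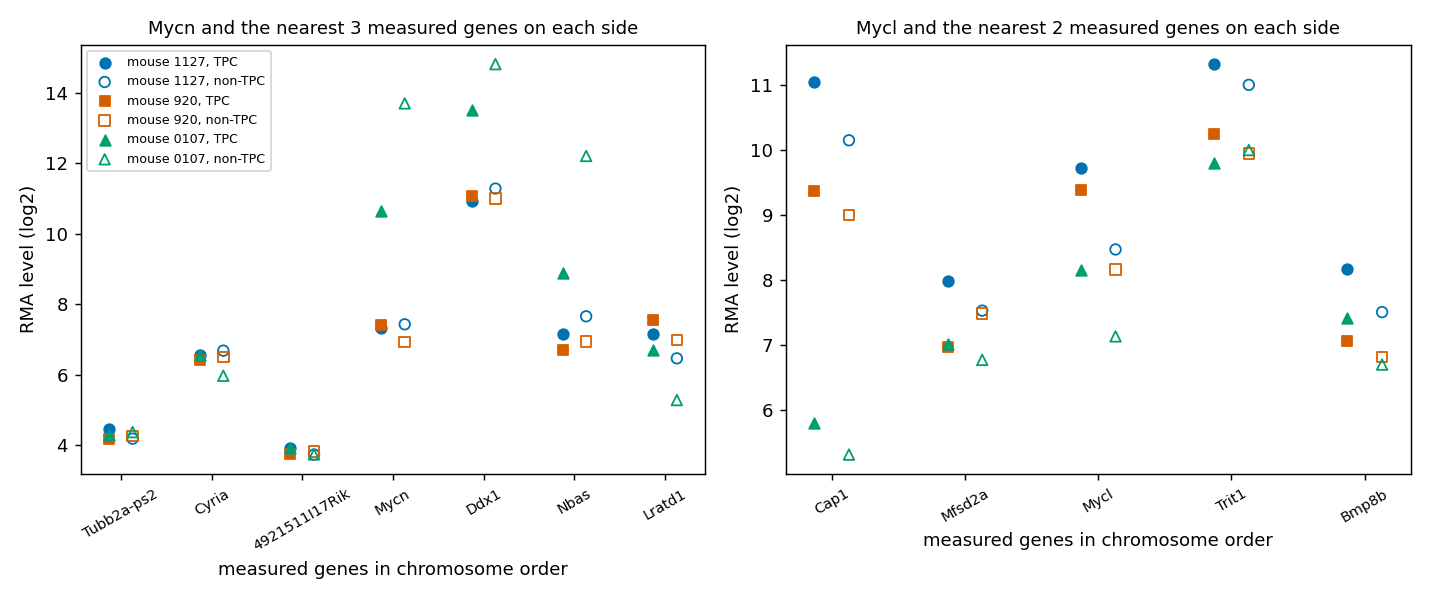
RMA levels (log2) of Mycn and its nearest 3 measured genes on each side (left) and of Mycl and its nearest 2 (right), in chromosome order, with filled symbols for TPC and open symbols for non-TPC arrays of each mouse. Mycn, Ddx1 and Nbas are highest in the 2 arrays of mouse 0107, with the non-TPC array on top, and Cap1 is lowest in that mouse.

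Myc, on chromosome 15, had 1 probe set and the opposite direction to Mycl in 2 mice. It was at 6.84, 6.71 and 6.95 in TPCs of mice 1127, 920 and 0107, against 8.10, 7.25 and 6.68 in non-TPCs. The TPC arrays lay close together, and the spread was among the non-TPCs, with mouse 1127 highest. The TPC mean was 6.84 ± 0.12, against a non-TPC mean of 7.34 ± 0.71 (SD, n = 3 each). The differences in the 3 mice were -1.25, -0.54 and 0.27, where 4.23% of all genes in mouse 1127 and 2.87% in mouse 920 were lower in TPCs by at least 1 unit. The mean difference of -0.51 (SE 0.34) did not pass (limma adjusted p = 0.882, 95% confidence interval -1.33 to 0.32). Without the non-TPC array of mouse 1127 it was -0.13.

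Among the genes most like Myc over the 6 arrays were the collagen gene Col1a2, the complement inhibitor gene Serping1 and the chemokine gene Ccl2, beside Plce1 and Poglut3 (r from 0.96 to 0.99). Col1a2 stood at 5.92, 5.97 and 5.96 in TPCs of mice 1127, 920 and 0107, against 11.11, 8.08 and 6.38 in non-TPCs. The mean level of 8 fibroblast markers was 6.20, 6.00 and 5.99 in TPCs, against 10.07, 8.09 and 7.59 in non-TPCs, and 7 of the 8 were lower in TPCs of 3 of 3 mice. Their part in the Myc difference was not tested.

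Markers of other cells moved with the fractions in general. The mean level of 10 leukocyte markers ranged from 6.67 to 7.33 in TPCs and from 8.23 to 8.66 in non-TPCs. Of the 10, 8 were lower in TPCs of 3 of 3 mice, as were 13.8% of all genes. The other 2, Cd3e and Cd79a, were higher in TPCs of 3 of 3 mice, as were 19.7% of all genes. Cd3e differed by 0.39, 0.0002 and 0.16 in mice 1127, 920 and 0107, and Cd79a by 0.95, 0.0026 and 0.35. That of 6 endothelial markers ranged from 4.82 to 4.93 in TPCs and from 5.02 to 6.62 in non-TPCs, with 3 of 6 lower in 3 of 3 mice. All 7 alveolar markers (7.17 to 7.35 in TPCs, 9.02 to 9.39 in non-TPCs) and all 4 club cell markers (9.26 to 10.46 in TPCs, 10.51 to 12.40 in non-TPCs) were lower in TPCs of 3 of 3 mice. The 8 measured neuroendocrine markers, which include Insm1 and Chga and define the tumour cells, averaged 10.13, 9.67 and 9.80 in TPCs of mice 1127, 920 and 0107, against 9.72, 9.55 and 9.44 in non-TPCs, so both fractions held them. Of these 8, 3 were higher in TPCs of 3 of 3 mice, as were 19.7% of all genes, and 0 were lower in 3 of 3. Insm1 differed by 1.12, 0.53 and 0.62 in mice 1127, 920 and 0107, Syp by 0.86, 0.25 and 0.04 and Syn1 by 0.48, 0.39 and 0.47. The others had both signs over the mice. Chga differed by 0.69, -0.04 and 1.84, and Chgb by -0.19, 0.01 and 0.31. Resp18 differed by -0.69, -0.72 and 0.64, Ncam1 by 0.42, 0.05 and -0.51, and Uchl1 by 0.59, 0.53 and -0.58. Among the fibroblast markers, Col3a1 lay between 3.69 and 3.98 in TPCs and Lum between 4.21 and 4.49, below the first quartile of every array, while Dcn lay between 10.36 and 11.58. The surfactant gene Sftpc of alveolar cells lay between 9.49 and 10.09 in TPCs. The part of cell composition in any network gene's difference was not tested, and in these bulk samples fewer cells of a type and less RNA per cell cannot be told apart.

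Max, the shared partner of the network, on chromosome 12, was nearly level across the arrays. Its 1 probe set was at 6.81, 7.08 and 6.93 in TPCs of mice 1127, 920 and 0107, against 6.80, 6.92 and 6.69 in non-TPCs. Its differences were positive in every mouse, 0.24 at most, as were those of 19.7% of all genes. The difference of 0.14 (SE 0.14) did not pass (limma adjusted p = 0.912), and its 95% confidence interval, -0.19 to 0.46, leaves out a 2-fold difference in either direction.

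By their brightest probe sets, the antagonists had mean differences between -0.35 and -0.03, and the largest in size was that of Mga. When all probe sets of a gene were averaged, they lay between -0.08 for Mxd4 and 0.04 for Mxi1, with Mga at -0.04. MGA, on chromosome 2, is a large protein with a second DNA-binding domain, the T-box, and is part of a noncanonical Polycomb complex. Mga was at 8.78, 8.56 and 8.63 in TPCs of mice 1127, 920 and 0107, against 9.14, 8.79 and 9.11 in non-TPCs. Its groups did not overlap, the only such case among the 10 network genes, and 12.6% of all genes had groups that did not overlap. The difference of -0.35 (SE 0.15), a 1.28-fold higher level in non-TPCs, did not pass (limma adjusted p = 0.773, with the block 0.488). Its 95% confidence interval was -0.71 to 0.01 without the block and -0.69 to -0.01 with it. The second brightest of its 5 probe sets differed by -0.36 and was also lower in TPCs of 3 of 3 mice, with -0.51, -0.30 and -0.26. The other 3 differed by 0.12, 0.17 and 0.20.

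Mxd4, on chromosome 5, encodes an MXD repressor associated with differentiating and resting cells. It was at 9.28, 8.87 and 9.94 in TPCs of mice 1127, 920 and 0107, against 9.45, 9.21 and 10.43 in non-TPCs. Mice differed more than fractions: mouse 0107 was highest in both, and the mouse means spanned 1.15, while the fraction differences were -0.17, -0.34 and -0.49. The mean difference of -0.33 (SE 0.39) did not pass (limma adjusted p = 0.92, with the block 0.528). Its 95% confidence interval without the block, -1.27 to 0.61, includes a 2-fold lower level in TPCs. The interval with the block, -0.68 to 0.02, leaves it out. The 3 dimmer probe sets differed by -0.08, 0.03 and 0.06. Mga and Mxd4 were the 2 network genes lower in TPCs of 3 of 3 mice, as were 13.8% of all genes.

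The remaining antagonists had no common direction over the mice. Mxd3, on chromosome 13, encodes an MXD protein found in proliferating cells. It was at 8.74, 8.53 and 7.94 in TPCs of mice 1127, 920 and 0107, against 8.45, 8.52 and 8.71 in non-TPCs. All 3 of its probe sets were higher in TPCs of mice 1127 and 920 and lower in TPCs of mouse 0107, where they differed by -0.77, -0.46 and -0.49. Mnt, on chromosome 11, a broadly expressed antagonist that also pairs with MLX, was at 8.58, 8.33 and 8.04 in TPCs, against 8.27, 8.46 and 8.49 in non-TPCs. Its differences of 0.31, -0.12 and -0.45 likewise were positive in mouse 1127 and lowest in mouse 0107.

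Mxi1, on chromosome 19, encodes the MXD family protein first described as a MAX interactor. It was at 9.62, 8.90 and 8.95 in TPCs of mice 1127, 920 and 0107, against 9.47, 9.17 and 9.33 in non-TPCs, and its 2 probe sets disagreed in sign, with mean differences of -0.17 and 0.24. Mxd1, on chromosome 6, the founding MXD gene, which is induced in differentiation, was at 8.56, 9.05 and 8.61 in TPCs, against 8.67, 9.19 and 8.47 in non-TPCs. For Mxd1 mouse 920 was highest in both fractions. The mean differences of Mxd3, Mnt, Mxi1 and Mxd1 were between -0.17 and -0.03, and none passed (limma adjusted p from 0.931 to 0.986). Their 95% confidence intervals ran from -0.70 at the lowest to 0.53 at the highest.

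**Figure D3:**
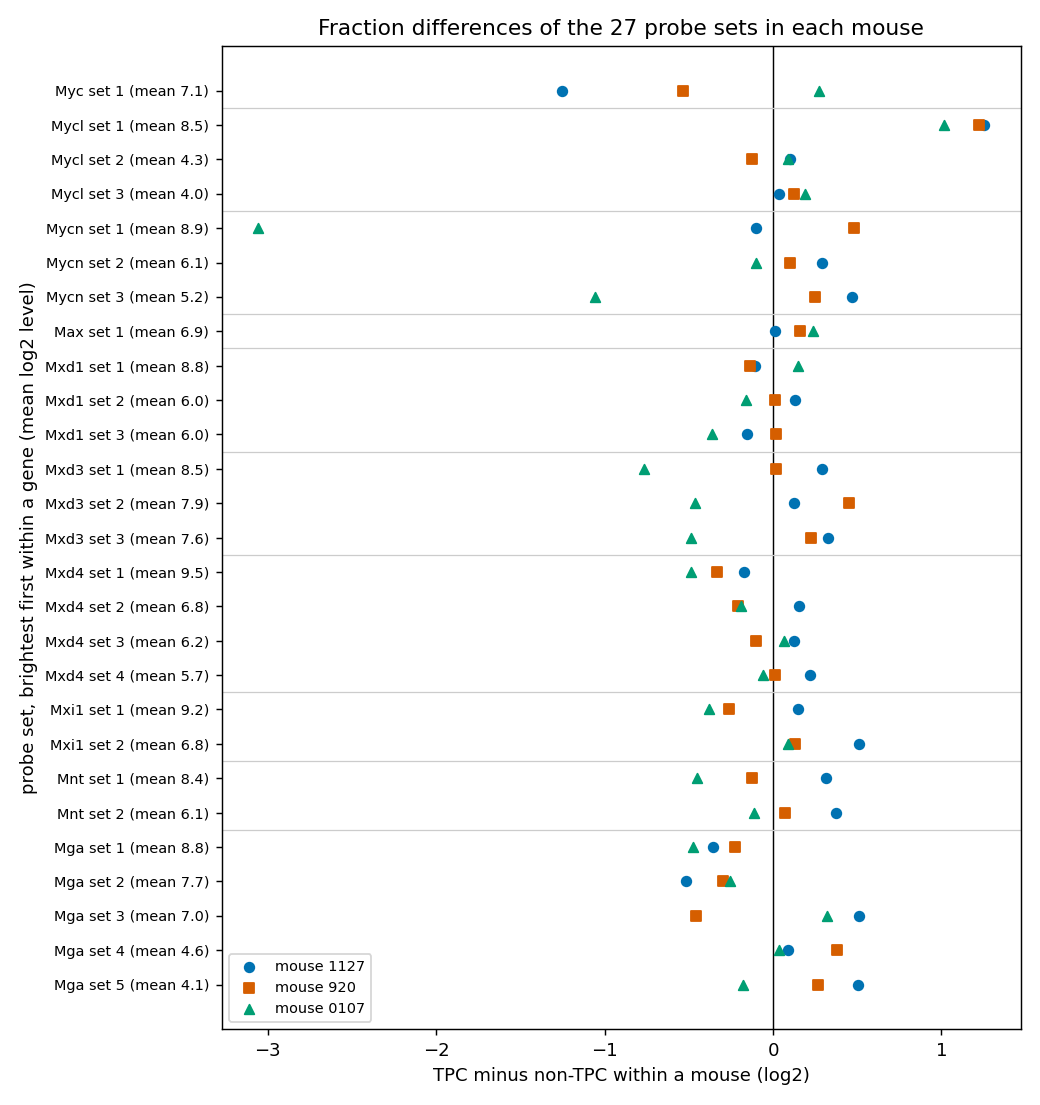
TPC minus non-TPC differences (log2, x axis) of the 27 probe sets, 1 row each, brightest first within a gene, with 1 symbol per mouse. The bright Mycl probe set is at 1.02 to 1.25 in all 3 mice, Mycn and Mxd3 reach their lowest values in mouse 0107, and the 2 brightest Mga probe sets are negative in all 3.

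Across the network, 0 of 10 genes passed the limma test, with and without the replicate block, where 0.0605% of all genes passed without it and 0.0715% with it. At an unadjusted p under 0.05 there were 0 of 10 without the block, where 6.48% of all genes had such a p. With the block there were 2, Mycl and Mga, where 9.85% of all genes did. Of the 27 probe sets 0 passed without the block (limma adjusted p from 0.907 to 0.998), where 0.0244% of all probe sets did. The brightest of Mga was the 1 probe set with an unadjusted p under 0.05 there, where 5.46% of all had one. With the block 0 of the 27 passed (smallest limma adjusted p 0.109). An unadjusted p under 0.05 was then found for 3, the brightest of Mycl and the 2 brightest of Mga. The share of all probe sets with such a p was not counted for that fit. The median difference was -0.16 over the 10 genes and 0.04 over all genes.

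**Figure D4:**
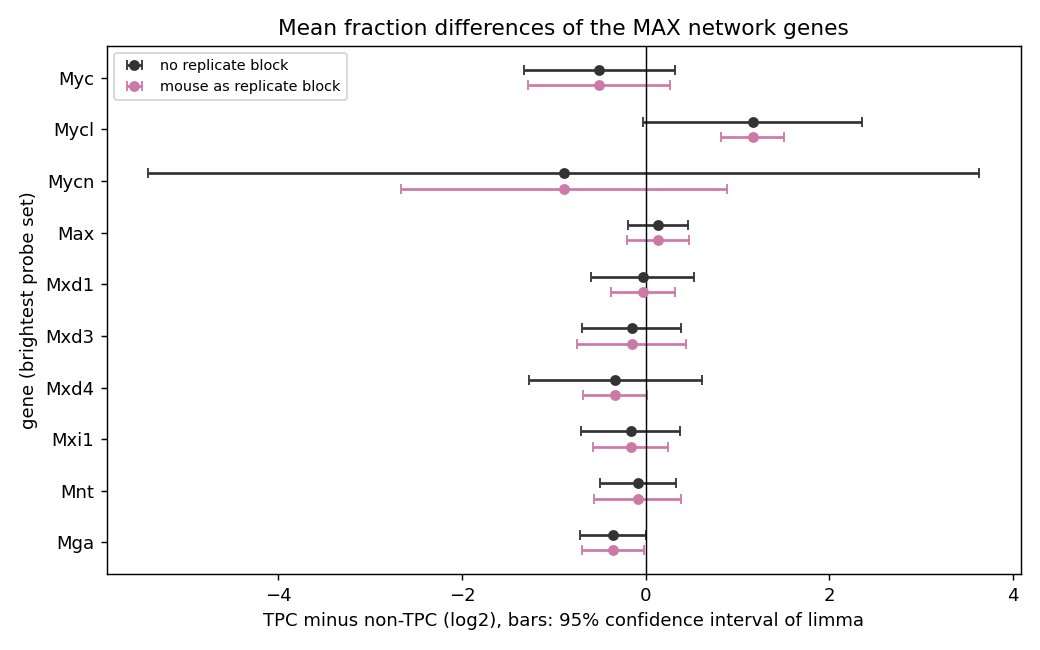
Mean TPC minus non-TPC difference (log2) of each network gene with its 95% confidence interval from limma, without the replicate block (dark) and with the mouse as a replicate block (pink). The interval of Mycl narrows to 0.82 to 1.50 with the block, and that of Mycn stays wide, from -2.67 to 0.88.

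The balance of activators and antagonists was described by the mean difference of Myc, Mycl and Mycn minus that of the 6 antagonists. It was -0.05, 0.57 and -0.19 in mice 1127, 920 and 0107, with a mean of 0.11 ± 0.40 (SD, n = 3), so its sign varied between mice. The activators averaged -0.03, 0.39 and -0.59, since Mycl was offset by Myc in mouse 1127 and by Mycn in mouse 0107. The antagonists averaged 0.02, -0.18 and -0.40 by their brightest probe sets. With averaged probe sets the mean balance was -0.0951. For Mycl alone the difference minus that of the antagonists was 1.23, 1.40 and 1.42. No p is given, because levels of different genes cannot be weighed against each other on these arrays and the members were chosen with results known.

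The partners and targets of the network had no gene past the test. Of 63 measured genes in 7 lists, 0 passed with or without the replicate block (smallest limma adjusted p 0.622, and 0.254 with the block), and 7 had an unadjusted p under 0.05, where 6.48% of all genes did. With the block 9 of the 63 had one, where 9.85% of all genes did. In the MLX branch, a parallel set of factors that sense nutrients, Mlx differed by 0.39, Mlxip by -0.35 and Mlxipl by -0.11, on average. Their signs varied between mice: in mouse 1127 they differed by -0.03, -0.56 and -0.32, in mouse 920 by 0.24, -0.60 and -0.72 and in mouse 0107 by 0.98, 0.10 and 0.70. Among 6 corepressor genes of MXD proteins and MNT (median 0.09), the histone deacetylase gene Hdac1 had differences of 0.40, 0.38 and 0.47 in mice 1127, 920 and 0107, and the scaffold gene Sin3b had 0.20, 0.37 and 0.10, all positive. Hdac2 differed by -0.11, 0.09 and -0.78.

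Of 11 genes of the Polycomb complex that holds MGA (median -0.08), the histone methyltransferase gene Ehmt1 was lower in TPCs of 3 of 3 mice, with -0.26, -0.42 and -0.65 (limma adjusted p = 0.622). The heterochromatin gene Cbx3 and the complex member L3mbtl2 differed by 0.30 and 0.20 on average, but by -0.03 and -0.11 in mouse 0107. Of 9 MYC cofactors (median -0.16), Bptf, Ep400 and Trrap, which encode subunits of chromatin remodelling and acetylation complexes, differed by -0.44, -0.42 and -0.42, each lower in TPCs of 3 of 3 mice (limma adjusted p from 0.692 to 0.886). Of 9 genes of MYC protein turnover (median -0.16), the ubiquitin ligase genes Huwe1 and Skp2 differed by -0.39 and -0.27, and the kinase gene Gsk3b by 0.35, on average. Signs varied between mice 1127, 920 and 0107 for Skp2 (-0.02, 0.14 and -0.93) and Gsk3b (0.58, 0.65 and -0.17).

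Genes that MYC proteins are known to induce varied between mice. Their median difference over 19 genes was 0.23, 0.17 and -0.72 in mice 1127, 920 and 0107, against 0.07, 0.05 and -0.03 over all genes. In TPCs of mouse 0107, 15 of the 19 were lower, where 53.6% of all genes were, and in mice 1127 and 920 the counts were 5 and 8, where 40.7% and 42.1% of all genes were lower. The nucleolar gene Ncl was at 11.66, 11.96 and 11.39 in TPCs, against 11.66, 11.99 and 12.63 in non-TPCs, the highest array being the non-TPCs of mouse 0107. Odc1, the rate-limiting enzyme gene of polyamine synthesis, differed by 0.40, 0.27 and 0.04, and the cyclin gene Ccnd2 by -1.40, -0.57 and -0.38. The overall list median was -0.07.

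Of 6 genes that MYC proteins are known to repress (median 0.24), 3 had an unadjusted p under 0.05, where 6.48% of all genes did, and 0 passed over all genes. The stress gene Gadd45a differed by 1.04, 0.94 and 0.43 in mice 1127, 920 and 0107, and the growth arrest gene Ndrg1 by 0.45, 0.39 and 0.83. Ndrg2, of the same family as Ndrg1, differed by -0.76, -0.19 and -0.70 (limma adjusted p from 0.631 to 0.76 for the 3). The members of this list therefore had both directions.

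**Figure D5:**
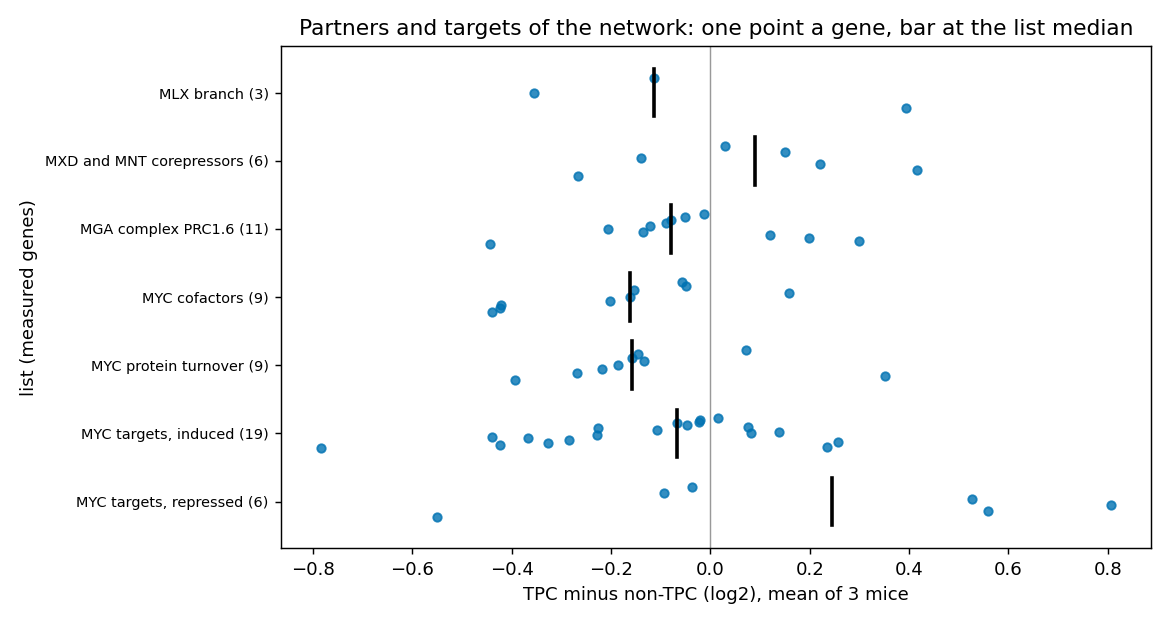
Mean TPC minus non-TPC difference (log2, x axis) of the measured genes in the 7 lists of partners and targets, 1 point per gene and a bar at each list's median. The medians lie between -0.16 and 0.24, and single genes lie on both sides of 0 in every list.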

How the data were processed

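RNA from 6 sorted samples was hybridised to 1-colour Affymetrix arrays after labelling with the WT Plus kit, per the labels' protocols. The authors deposited RMA values, 1 per probe set and array (background corrected, quantile normalised and summarised over probes), per the submitters' processing notes. Neither the RMA version nor the log base is given there, and the deposited values, which range from 2.70 to 14.81, were taken as log2. Quantile normalisation sets equal distributions on all arrays, so differences are relative to the other genes. The 64 control probe sets were left out. Genes were named from probe sets with 1 listed symbol, updated by Entrez identifier to RefSeq GRCm38.p6 (18032 of 18193 genes matched), and represented by the probe set with the highest mean. Chromosomes and gene order come from that table.

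Fractions and mice come from the sample titles. The comparison used limma 3.58.1 in R 4.3.3 (lmFit, eBayes, two-sided) on all genes, with fraction as the only term. It was run again on all probe sets, and was tested on simulated data. The titles give each mouse 1 array per fraction, which pairs the samples by animal, and the deviations of such pairs from the fraction means correlated at 0.30, 0.46 and 0.36 in mice 1127, 920 and 0107. With a replicate block for the mouse, 2 residual degrees of freedom were left, against 4 without it. The precision is limited by the number of arrays. Alternatives were the block, a random mouse effect, averaged probe sets, a filter on dim genes, median centring, a variance trend and leaving out mice or arrays. Genes named by rule were all 10 members, up to 3 per list by smallest p, the 5 most like each MYC gene and the neighbours of Mycl. The neighbours of Mycn, single cell type markers and the genes set beside Mycl and Mycn by size of difference were chosen after their values were seen. Members, lists and rules were chosen with earlier results of these data known. Of 69 list symbols 63 were measured. The others were not analysed here.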

Additional observations from a re-analysis of the deposited data

How the results depend on the processing

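Over 15 alternatives, 0 network genes passed in any, and the probe set count and the count over the partner and target lists were also 0 in every alternative run. The replicate block changed no call: it left 0 of 10 genes past the threshold, and Mycl had its smallest adjusted p there (0.0843). Mycl kept its sign in all 15, between 0.43 with averaged probe sets and 1.63, and Myc, Max and Mga kept theirs. The signs of Mycn, Mxd1, Mxd3, Mxd4 and Mnt depended on single mice or arrays, while Mxi1 changed sign only with averaged probe sets. When 1 mouse or array was left out, Mycn ranged from -2.10 to 1.28, being 0.19 without both arrays of mouse 0107, Mxd1 from -0.19 to 0.17, Mxd3 from -0.38 to 0.15, Mxd4 from -0.62 to 0.0355 and Mnt from -0.29 to 0.095. Mycn was positive when the non-TPC array of mouse 0107 or that whole mouse was missing, Mxd3 and Mnt when its TPC array or the whole mouse was, and Mxd4 when its non-TPC array was. With averaged probe sets Mxi1 was 0.0387 and Mnt 0.0122. Leaving out 1 array of a mouse mixes mouse with fraction. The balance of activators and antagonists was 0.52 with Mycn left out, between -0.12 and 0.26 when 1 mouse was left out, and -0.0951 with averaged probe sets. The causes were not tested. Max lay below the median gene level and could not be fitted with the filter. The dim Mycl probe sets lay below the first quartile of every array, which limits what they can show.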
